A study of Mus musculus with 10 samples.

Results

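The smooth muscle contractile genes Acta2, Cnn1, Myh11, Tagln, Actg2, Des, Myocd, Smtn, Lmod1 and Synpo2 were followed in urogenital systems of mouse embryos. They are 10 of the 18193 genes that a single platform symbol names on the array, and they were chosen by exact symbol; 18 probe sets carry one of these symbols. Urogenital systems, which in the embryo comprise kidneys, gonads, ducts and bladder, were taken at embryonic day 15.5; the labels do not list the organs kept. Total RNA was pooled from 1 to 2 urogenital systems per array and hybridized to 10 Affymetrix mouse arrays. The 5 homozygous pools carried Wnt9b cneo/cneo, and the 5 control pools are Wnt9b cneo/+ by genotype label but WT by title; by the genotype label, both groups therefore carry at least 1 cneo allele, and the labels name no treatment. The labels do not say what cneo does to the transcript or whether it acts in all cells, and the series design text tells of kidney mesenchyme at an earlier stage with a different Wnt9b allele, an experiment other than the one labelled here. The comparison asks which transcripts differ with the Wnt9b genotype, Wnt9b being a Wnt ligand of the nephric duct and ureteric bud.

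Smooth muscle cells shorten when myosin filaments, whose heavy chain is encoded by Myh11, slide along thin filaments of smooth muscle actin. Calponin, transgelin, smoothelin and leiomodin bind or build these thin filaments, desmin filaments link them across the cell, and myocardin switches the set on by joining serum response factor at a DNA element called the CArG box. In the urogenital system of this stage smooth muscle lies around the ureter, in the bladder wall, around the reproductive ducts and in arteries.

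The CArG box is CC, then 6 bases of A or T, then GG, and it reads the same on both strands. It was searched in promoters, 250 bases before to 50 bases after the gene start, of the RefSeq promoter set on GRCm38.p6 used here. That set held 6 of the 10 genes (Acta2, Cnn1, Des, Smtn, Lmod1 and Synpo2). Myh11, Tagln, Actg2 and Myocd had no entry in it and were not searched. No exact match lay in the windows of the 6 genes searched, and 1.63% of all 32851 promoters in that set had one. Matches with 1 G or C among the 6 inner bases lay in the Acta2 window alone of the 6, and in 8.5% of all promoters. The Acta2 window (chr19:34255324-34255623, minus strand) is shown with its 2 near matches in capitals, which begin 84 and 34 bases before the start and do not overlap. The windows of Cnn1 (chr9:22099003-22099302, plus strand) and Des (chr1:75360042-75360341, plus strand) are shown beside it because Cnn1 varied with Acta2 between pools and Des did not, as given below; neither has a match.
Acta2: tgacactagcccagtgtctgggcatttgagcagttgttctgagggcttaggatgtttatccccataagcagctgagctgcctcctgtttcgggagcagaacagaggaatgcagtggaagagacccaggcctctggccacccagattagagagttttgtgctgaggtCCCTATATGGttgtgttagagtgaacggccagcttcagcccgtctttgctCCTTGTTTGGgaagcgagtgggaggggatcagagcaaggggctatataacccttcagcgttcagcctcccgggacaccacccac
Cnn1: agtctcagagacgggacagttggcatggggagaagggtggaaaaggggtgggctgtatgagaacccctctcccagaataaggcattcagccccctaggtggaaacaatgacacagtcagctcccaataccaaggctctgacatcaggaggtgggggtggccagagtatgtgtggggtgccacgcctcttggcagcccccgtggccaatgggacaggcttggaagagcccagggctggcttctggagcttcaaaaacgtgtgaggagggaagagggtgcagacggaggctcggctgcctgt
Des: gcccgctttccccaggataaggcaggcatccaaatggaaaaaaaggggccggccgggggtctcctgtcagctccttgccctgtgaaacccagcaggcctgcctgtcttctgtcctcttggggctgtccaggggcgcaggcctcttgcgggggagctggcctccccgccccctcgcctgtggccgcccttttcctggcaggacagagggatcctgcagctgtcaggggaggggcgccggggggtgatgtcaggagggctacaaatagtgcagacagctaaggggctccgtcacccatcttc
A match or its absence in these windows describes the letters alone.

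The deposited values are linear intensities that share a trimmed mean of 500, and precision is limited by having 5 arrays per genotype. Homozygous pool 5 and control pool 1 stood apart in a sign of RNA integrity: the actin control probe set at the 3' end was 97.7 and 94.8 times as bright as the middle one in them, against 9.87 to 33.1 in the other 8 arrays. Homozygous pools 3, 4 and 5 had a high level of Xist, the RNA of the inactive X chromosome (13.8 to 14.3 in log2), whereas the other 7 pools lay at 6.07 or below. All 5 control pools were among those 7. The Xist level, and any difference in sex that it marks, is therefore partly confounded with genotype in every comparison over all pools. Results without these arrays stand beside the full ones where they bear on the members.

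All 10 contractile genes had a higher mean in homozygous pools, and none of the 10 passed the threshold of an adjusted p under 0.05 (limma, Benjamini-Hochberg over all 18193 genes). Of all genes 53.9% had a higher mean in homozygous pools, 0.967% passed, and 0.539% passed with the higher mean in homozygous pools. The median log2 difference of the 10 was 1.85, with a median of 0 over all genes. A log2 difference of at least 1 was reached by 7 of the 10, against 3.85% of all genes, and one of at least 2 by 4 of the 10, against 0.792% of all genes. At an unadjusted p under 0.05, limma counted 7 of the 10, as did the exact permutation test over pools; the shares of all genes were 15.7% by limma (9.83% with the higher mean in homozygous pools) and 15.1% by the exact test. The lowest adjusted p among the members was 0.117. In none of the 10 did the groups separate, while every homozygous pool lay above every control pool in 2.61% of all genes. The 10 genes were chosen with earlier results of these data known, so these counts are descriptions. In bulk tissue, more smooth muscle cells, more of these RNAs per cell and a smaller share of other tissues in the pool cannot be told apart.

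**Figure D1:**
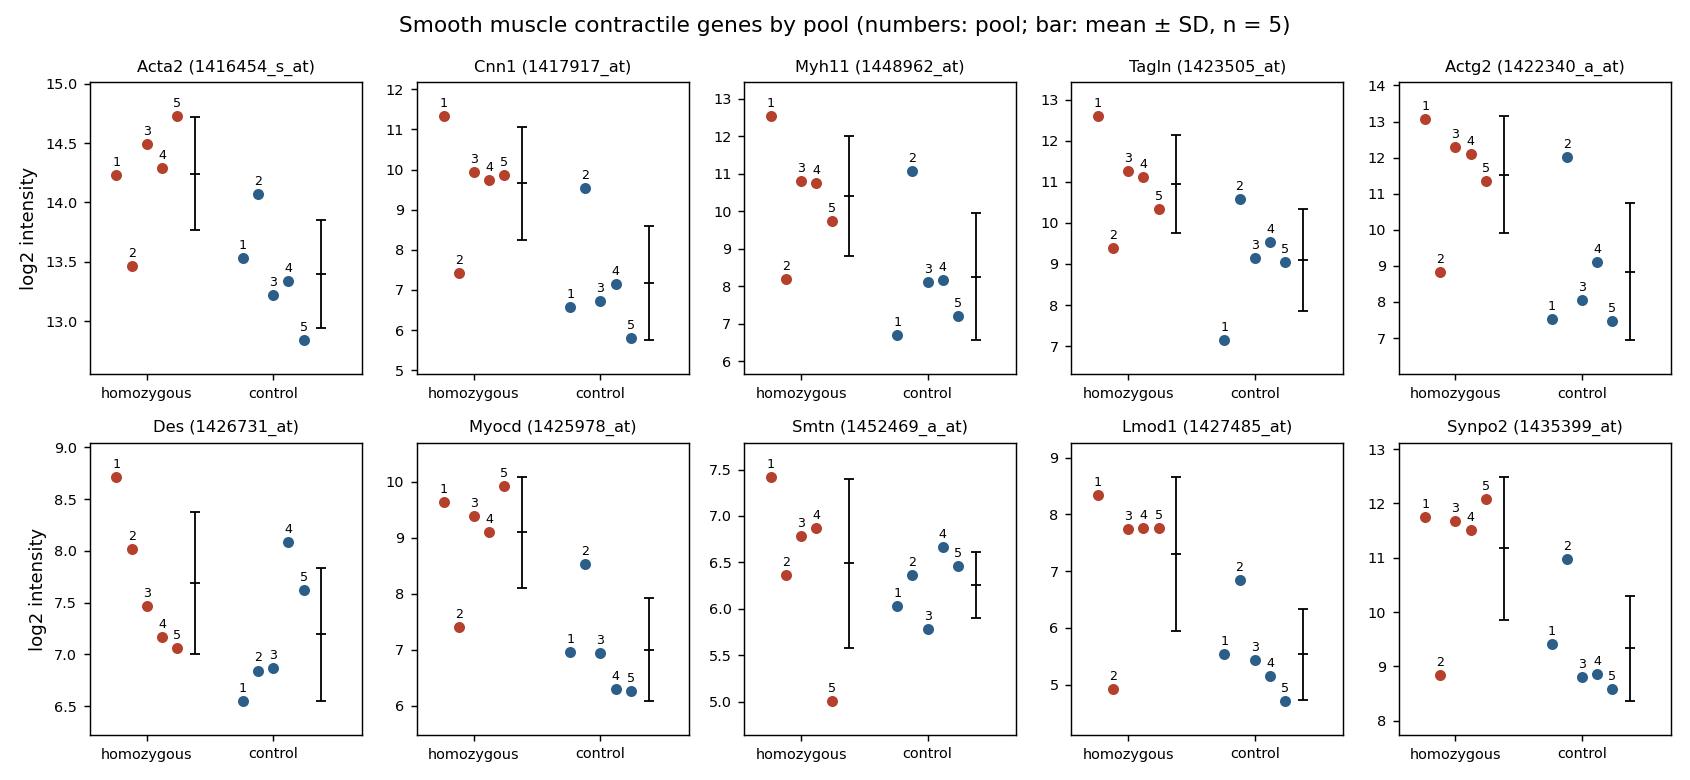
Log2 intensity (vertical axis) of the probe set that stands for each contractile gene, with 1 point per pool, homozygous pools at the left and control pools at the right; numbers name the pools, and bars give the mean and SD of 5 pools. In 8 of the 10 genes homozygous pools 1, 3, 4 and 5 and control pool 2 are the 5 highest points; Des and Smtn have another order.

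Acta2 encodes smooth muscle alpha-actin. Its brightest probe set, 1416454_s_at, had intensities of 19205, 11312, 23103, 20083 and 27147 in homozygous pools 1 to 5. In control pools 1 to 5 it had 11858, 17217, 9537, 10327 and 7318. Homozygous pools 1, 3, 4 and 5 were above every control pool, and homozygous pool 2 lay among the control values. The log2 mean was 14.24 ± 0.48 in homozygous pools and 13.40 ± 0.45 in control pools (SD, n = 5 each), a difference of 0.84 ± 0.28 (SE; adjusted p = 0.178, limma; exact two-sided permutation p = 0.0238, unadjusted). By the naming of this platform the ending _s_at marks probes shared with related transcripts, and the actin genes are near-identical in coding sequence, so other actins may add to this value. At the floor of 16 the dimmer Acta2 probe sets differed by more: 1444105_at by 1.90 ± 0.84 and 1456658_at by 1.14 ± 0.46 (SE; adjusted p = 0.41 and 0.358, limma over 45037 probe sets). For 1456658_at this hinged on the floor: it differed by 1.54 with a floor of 4 and by 0.60 with a floor of 32. With a floor of 32, 1444105_at differed by 1.59. At 1444105_at the homozygous pools had 344, 11.05, 171, 126 and 118, and the control pools had 12.1, 109, 20.8, 22.9 and 23.6. Homozygous pool 2 and control pool 1 lay under 16 there and were set to that floor; with a floor of 4 the difference was 1.87. With the mean of the 3 probe sets Acta2 differed by 1.29, and without the 3 Xist-high pools 1416454_s_at differed by 0.45.

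Actg2 encodes the gamma-actin of visceral smooth muscle and had the largest difference of the 10. Its intensities were 8538, 459, 5049, 4419 and 2592 in homozygous pools 1 to 5. The control pools 1 to 5 had 184, 4151, 265, 548 and 177. Control pool 2 was brighter than homozygous pools 2 and 5, and homozygous pool 2 was below control pool 4. The difference was 2.70 ± 1.05 in log2 (SE; adjusted p = 0.255, limma; exact permutation p = 0.0476), which is 6.49-fold between geometric means. Within each genotype the brightest pool exceeded the dimmest by more than that fold: the SD was 1.62 in homozygous and 1.90 in control pools on the log2 scale.

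Myh11, the smooth muscle myosin heavy chain, is a late marker of the differentiated cell. Probe set 1448962_at had 5933, 293, 1794, 1722 and 854 in homozygous pools 1 to 5. In control pools 1 to 5 it had 104, 2162, 275, 289 and 148. Control pool 2 had the second highest value of the 10 arrays. Myh11 differed by 2.15 ± 0.98 in log2 (SE; adjusted p = 0.333, limma; exact permutation p = 0.0952). The second probe set, 1418122_at, differed by 1.86 ± 0.78 (SE; adjusted p = 0.384, limma over probe sets) and was at the floor in 1 homozygous and 3 control pools.

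Cnn1 encodes calponin, which binds thin filaments and slows the myosin motor. Its single probe set had 2582, 171, 980, 853 and 932 in homozygous pools 1 to 5. The control intensities, pools 1 to 5, were 95.1, 750, 106, 142 and 56.2. The 4 homozygous pools other than pool 2 were above all control pools, control pool 2 included. The log2 mean was 9.66 ± 1.41 in homozygous pools and 7.16 ± 1.42 in control pools (SD, n = 5 each), a difference of 2.49 ± 0.84 (SE; adjusted p = 0.188, limma; exact permutation p = 0.0159).

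Tagln encodes transgelin, also called SM22-alpha, an early actin-binding marker of smooth muscle. It had 6215, 670, 2444, 2230 and 1297 in homozygous pools 1 to 5. Among controls, pools 1 to 5 had 141, 1530, 570, 740 and 534. Homozygous pool 5 was below control pool 2, and control pool 1 was the lowest array by a wide margin. Tagln differed by 1.85 ± 0.73 in log2 (SE; adjusted p = 0.259, limma; exact permutation p = 0.0476). It was 1.36 without control pool 1, one of the arrays of high actin ratio.

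Smtn encodes smoothelin, an actin-binding protein of contractile cells. It had 172, 82.6, 110, 117 and 32.1 in homozygous pools 1 to 5. The control intensities, pools 1 to 5, were 65.2, 82.5, 54.9, 102 and 88.2. The groups overlapped over nearly the whole range, and homozygous pools held both the highest and the lowest array. The log2 difference was 0.23 ± 0.42 (SE; adjusted p = 0.834, limma). With 1 pool left out at a time it ran from -0.0034, without homozygous pool 1, to 0.60, without homozygous pool 5.

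Lmod1 encodes leiomodin 1, which nucleates actin filaments in smooth muscle. It had 325, 30.4, 214, 218 and 216 in homozygous pools 1 to 5. Among controls, pools 1 to 5 had 46.8, 115, 43.3, 35.4 and 26.2. Homozygous pools 1, 3, 4 and 5 were all above the highest control pool, which was control pool 2, and homozygous pool 2 was the second lowest of the 10 arrays. The log2 difference was 1.77 ± 0.67 (SE; adjusted p = 0.239, limma; exact permutation p = 0.0397). Without homozygous pool 2 it was 2.36 ± 0.41 (SE; adjusted p = 0.044, limma), so the side of the threshold hinged on that pool. In that setting 1.37% of all genes passed.

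Synpo2 encodes synaptopodin 2, or myopodin, an actin-bundling partner of filamin that is made in smooth muscle and at the Z-discs of striated muscle. Its brightest probe set, 1435399_at, had 3462, 461, 3294, 2902 and 4326 in homozygous pools 1 to 5. Control pools 1 to 5 had 683, 2024, 447, 466 and 386. The log2 difference was 1.84 ± 0.69 (SE; adjusted p = 0.235, limma; exact permutation p = 0.0397). Probe set 1441206_at had the same 5 pools on top and differed by 1.27 ± 0.47 (SE), and 1450828_at, at the floor in 4 control pools, differed by 0.86 ± 0.40 (SE), or by 1.92 ± 0.58 with a floor of 4. Probe set 1452879_at had another order of pools. It had 823, 498, 576, 295 and 273 in homozygous pools 1 to 5, and 92.4, 145, 103, 730 and 233 in control pools 1 to 5. Control pool 4 was the second highest array here, while at 1435399_at it was 1 of the 5 low arrays.

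Des encodes desmin, the intermediate filament protein of smooth, skeletal and heart muscle. Probe set 1426731_at had 421, 259, 177, 144 and 134 in homozygous pools 1 to 5. Control pools 1 to 5 had 93.6, 115, 117, 272 and 197. Homozygous pool 1 was highest and control pool 4 next, and control pool 2, high in most other members, was next to the lowest. Des differed by 0.49 ± 0.40 in log2 (SE; adjusted p = 0.619, limma; exact permutation p = 0.262). It was 0.24 without homozygous pool 1, 0.32 with both probe sets averaged and 1.17 without the 3 Xist-high pools. The dim second probe set, 1426732_at, had 33.3, 40.9, 3.05, 25.8 and 33.9 in homozygous pools 1 to 5, and 26.1, 21.6, 38.6, 21.2 and 24.6 in control pools 1 to 5. It differed by 0.15 ± 0.27 (SE) with homozygous pool 3 raised to the floor of 16, and by -0.25 ± 0.60 with a floor of 4, so its direction was set by the floor.

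Myocd encodes myocardin, the coactivator of serum response factor in smooth muscle and heart, and had the lowest adjusted p of the members. Probe set 1425978_at had 800, 169, 675, 551 and 977 in homozygous pools 1 to 5. Control pools 1 to 5 had 125, 371, 122, 78.9 and 76.7. The 4 homozygous pools other than pool 2 were above control pool 2, which was above homozygous pool 2 and the other control pools. The SD on the log2 scale was 1.00 in homozygous and 0.92 in control pools (n = 5 each), and the difference was 2.10 ± 0.58 (SE; adjusted p = 0.117, limma; exact permutation p = 0.0159). Without homozygous pool 2 it was 2.52 ± 0.47 (SE; adjusted p = 0.0483, limma), and 1.37% of all genes passed there. Probe set 1425808_a_at was under the floor in all 5 control pools, whereas homozygous pools 1 to 5 had 70.1, 4.04, 39.3, 17.99 and 41.5, so pool 2 alone of these was under the floor; its difference was 0.99 ± 0.38 (SE; adjusted p = 0.33, limma over probe sets), and 2.40 ± 0.66 (SE; adjusted p = 0.159) with a floor of 4.

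**Figure D2:**
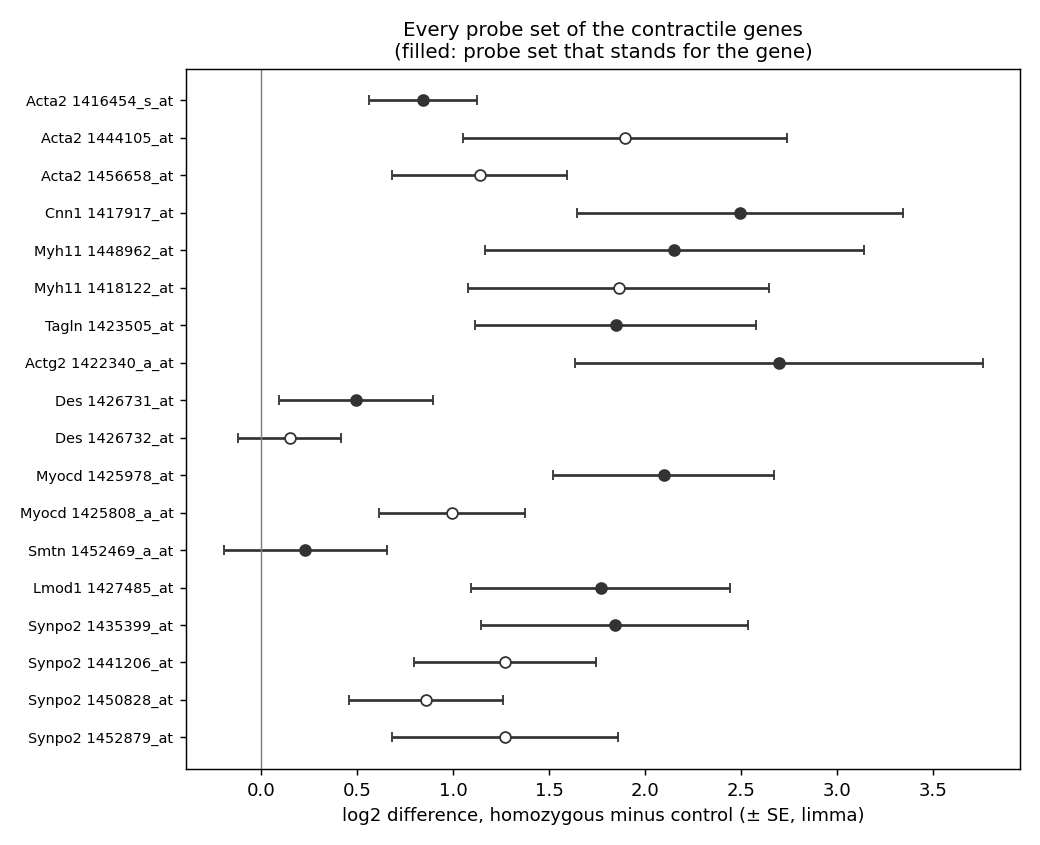
Log2 difference, homozygous minus control (horizontal axis), of all 18 probe sets of the contractile genes, with the SE from limma as a bar and filled points for the probe set that stands for each gene. All 18 differences are above 0 at the floor of 16, from 0.15 (Des 1426732_at, which is -0.25 with a floor of 4) to 2.70 (Actg2), and none passed the adjusted threshold.

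At the level of single probe sets, all 18 had a higher log2 mean in homozygous pools at the floor of 16, against 55.9% of all 45037 probe sets tested; with a floor of 4, or with quantile normalization, it was 17 of 18, the exception being Des 1426732_at. Of the probe sets, 0 of the 18 passed (limma, adjusted p under 0.05), against 0.231% of all. None of the 18 had every homozygous pool above every control pool, as 1.78% of all probe sets did. The differences ran from 0.15 at the dim Des probe set to 2.70 at Actg2.

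Acta2, Cnn1, Myh11, Tagln, Actg2, Myocd, Lmod1 and Synpo2 had the same 5 arrays on top. In these 8 genes, homozygous pools 1, 3, 4 and 5 and control pool 2 were the 5 highest arrays; the same 5 arrays were the highest in 2.26% of all genes. The mean log2 intensity over the 10 members was 10.96, 8.29, 10.19, 10.04 and 9.78 in homozygous pools 1 to 5. It was 7.60, 9.69, 7.91, 8.24 and 7.60 in control pools 1 to 5. Homozygous pool 2 lay below control pool 2, and the nearest value to each was that of a pool of the other genotype. Each of these pools lowered the median difference of the members. Without homozygous pool 2 the median was 2.39, and without control pool 2 it was 2.24, against 1.85 over all pools. Des went the other way, from 0.49 over all pools to 0.412 without homozygous pool 2 and 0.407 without control pool 2. Without control pool 2, Cnn1 differed by 3.09, Actg2 by 3.50 and Myh11 by 2.86, and the lowest adjusted p was 0.0501. With homozygous pool 5 and control pool 1 left out for their actin ratio, the median was 1.65. The lowest adjusted p was then 0.212, with 1 of the 10 at an unadjusted p under 0.05 (limma). The adjusted threshold was passed there by 0.126% of all genes, against 0.967% over all pools. Without the 3 Xist-high pools, which leaves homozygous pools 1 and 2, the median was 1.35, Lmod1 differed by 1.10 and Synpo2 by 0.97. Here 0 of the 10 reached an unadjusted p under 0.05, and 0.154% of all genes passed the adjusted threshold (limma). How many of all genes reached an unadjusted p under 0.05 was not counted in either setting, and both keep fewer arrays. Whether the lower counts are particular to the members therefore cannot be told.

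Further genes that smooth muscle uses were taken from lists by function, which, like the members, were written with earlier results of these data known. Of 19 measured filament, light chain and adhesion plaque genes 17 had a higher mean in homozygous pools, with a median log2 difference of 0.74, and 0 passed (limma, adjusted p under 0.05). Tns1, which encodes the focal adhesion protein tensin 1, averaged 11.29 ± 0.27 in homozygous pools and 10.72 ± 0.12 in control pools (SD, n = 5 each; log2 difference 0.57 ± 0.13, SE; adjusted p = 0.0753), with every homozygous pool above every control pool. The small heat shock protein gene Hspb6 differed by 1.49, the actin-binding protein gene Nexn by 1.60 ± 0.42 (SE) and the tropomyosin gene Tpm2 by 1.14 (adjusted p from 0.0987 to 0.115, limma).

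Of 15 genes for calcium entry, cGMP signalling and myosin phosphatase 13 had a higher mean in homozygous pools, with a median of 0.67 and 0 past the threshold. Kcnmb1, the smooth muscle subunit of the large-conductance potassium channel, differed by 1.99 ± 0.53 (SE; adjusted p = 0.111, limma) and its pore gene Kcnma1 by 1.01. Pln, which encodes the calcium pump inhibitor phospholamban, differed by 3.32 ± 1.01 (SE; adjusted p = 0.152), with 3 of 10 arrays at the floor, and Prkg1, the cGMP-dependent kinase, by 0.67. The 7 measured receptor genes had a median of 0.07 and 0 past the threshold, 4 with a higher mean; Ptger2, a prostaglandin receptor gene, differed by 0.92 ± 0.47 (SE; adjusted p = 0.4) and P2rx1, an ATP receptor gene, by 0.51. Chrm3, the muscarinic receptor gene, was at the floor on 9 of 10 arrays. Without homozygous pool 2, in which Pln was at the floor, the differences of Pln (4.32), Kcnmb1 (2.43), Hspb6 (1.77) and Tpm2 (1.42) passed (adjusted p from 0.0101 to 0.0428, limma), as did 1.37% of all genes.

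Of serum response factor and its 11 cofactors and antagonists 5 had a higher mean in homozygous pools, with a median of -0.08. Srf differed by 0.45 ± 0.22 (SE; adjusted p = 0.374), and the myocardin relatives Mrtfa and Mrtfb by -0.38 ± 0.64 and -0.07 ± 0.12 (SE; limma); Mrtfa turned to 0.10 without homozygous pool 5, and Mrtfb to 0.15 with its probe sets averaged. Gata6 encodes a zinc-finger factor of vascular and visceral smooth muscle that is also made in the adrenal cortex and gonads. Of all genes 0.967% passed (limma, adjusted p under 0.05), and of the genes of these lists only Gata6 did. Its log2 mean was 11.16 ± 0.33 in homozygous pools and 9.72 ± 0.43 in control pools (SD, n = 5 each), with no overlap, and it rose by 1.44 ± 0.23 (SE, log2; limma adjusted p = 0.0364). The difference kept its direction in all 24 alternatives but passed in 13 of them: with 1 pool left out it passed without homozygous pool 2 or control pool 2, and without any of the other 8 pools the adjusted p was 0.0531 to 0.103 (limma). Of all genes 1.37% passed without homozygous pool 2 and 2.28% without control pool 2. The Notch target gene Hey2 differed by 0.53 (adjusted p = 0.159). The 12 measured signals and factors of ureter and bladder muscle formation had a median of 0.01, 6 with a higher mean and 0 past the threshold. In it the ureter regulators Tshz3 and Tbx18 differed by 0.70 and 0.53, the visceral mesenchyme factor Foxf1 by 1.80 ± 0.93 (SE), and Sox9 by -0.72 (adjusted p from 0.148 to 0.403, limma).

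**Figure D3:**
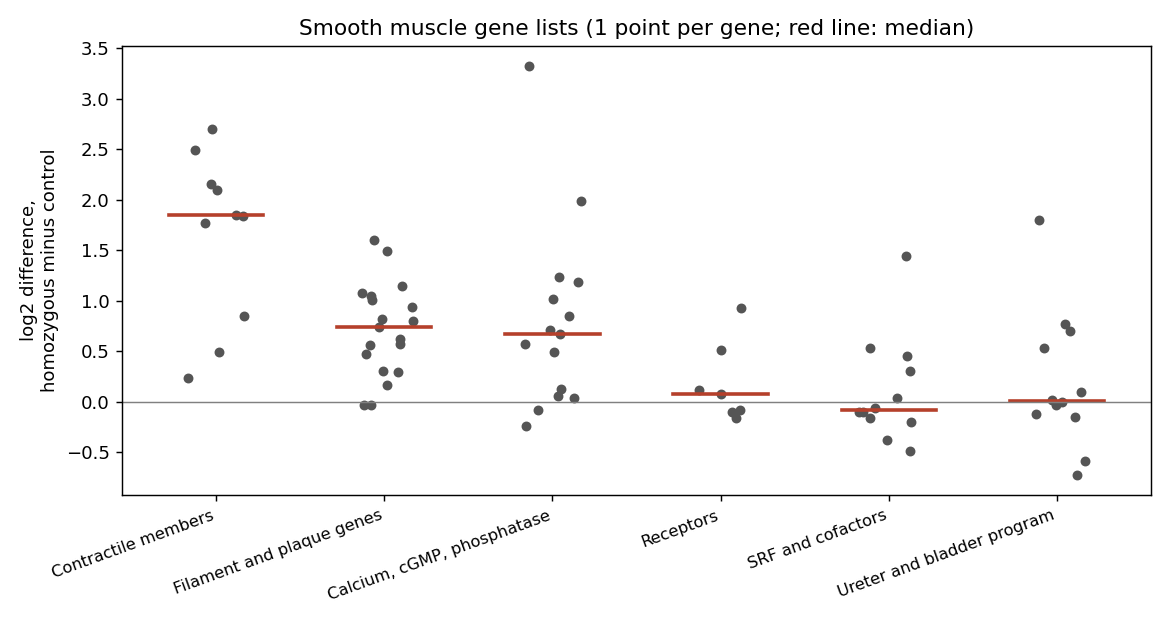
Log2 difference, homozygous minus control (vertical axis), of each measured gene in 6 smooth muscle lists, with 1 point per gene and a red line at the median. The medians are 1.85 for the contractile members, 0.74 for other filament and plaque genes, 0.67 for calcium, cGMP and phosphatase genes, and between -0.08 and 0.07 for receptors, serum response factor cofactors and the ureter and bladder program.

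Markers of neighbouring tissues varied between the same pools, and their part in the differences of the members was not tested. Each list mean had a Pearson r with the mean of the members over 10 arrays, given with genotype means removed in brackets. Kidney had -0.88 (-0.75), bladder lining 0.80 (0.72), sympathetic neuron 0.82 (0.59), pericyte 0.80 (0.61) and intestinal epithelium 0.29 (0.73). Skeletal muscle had 0.37 (0.10), heart 0.54 (-0.0026), endothelium -0.12 (-0.0045) and adrenal cortex -0.0016 (-0.57). Kidney markers were lower in homozygous pools in 5 of 7 genes, and their summed intensity was 5781 to 8667 in homozygous pools and 7060 to 14924 in control pools, where control pool 2 was the lowest. Lhx1 of the renal vesicle differed by -1.57 and Six2 of nephron progenitors by -0.91 (adjusted p = 0.0558 and 0.178, limma). Bladder lining markers were higher in 5 of 6 genes, with sums of 1193 to 4316 in homozygous pools and 740 to 3320 in control pools, and control pool 2 held the highest control sum. Upk1b, a uroplakin gene, differed by 1.69 ± 0.66 (SE; adjusted p = 0.254, limma). Intestinal epithelium markers had sums of 125 to 310 in homozygous pools; control pool 2 had 13897, against 106 to 435 in the other control pools. Of its 6 genes Cdx1 was at the floor on 9 of 10 arrays, all but control pool 2, and Fabp2 on 8. Without control pool 2 the median difference of the members was 2.24, against 1.85 over all pools, whereas Des was lower at 0.407. Whether these changes bear on the intestinal markers of that pool was not tested.

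Sympathetic neuron and chromaffin markers were higher in 7 of 7 genes, with sums of 4512 to 11186 in homozygous pools and 619 to 3094 in control pools, and control pool 2 held the highest control sum. Pericyte markers were higher in 3 of 5 genes, with sums of 9733 to 17343 in homozygous pools and 9473 to 12033 in control pools. The median log2 difference of the pericyte list was 0.31. Its gene of smallest p, Rgs5, differed by 0.98 ± 0.19 (SE, adjusted p = 0.0558, limma). Every homozygous pool lay above every control pool in Rgs5, as in 2.61% of all genes. Without homozygous pool 2 Rgs5 passed (adjusted p = 0.018, limma), as did 1.37% of all genes. The other pericyte genes differed by less: Abcc9 by 0.44, Kcnj8 by 0.31, Pdgfrb by -0.04 and Cspg4 by -0.18. Endothelial markers were higher in 1 of 6 genes, with sums of 3156 to 4479 in homozygous pools and 3746 to 5211 in control pools. Adrenal cortex markers were higher in 6 of 6 genes, with sums of 3474 to 29056 in homozygous pools and 257 to 15495 in control pools. Heart markers were higher in 6 of 6 genes, with sums of 3736 to 9835 in homozygous pools and 222 to 5052 in control pools; Nppa was at the floor on 3 of 10 arrays.

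**Figure D4:**
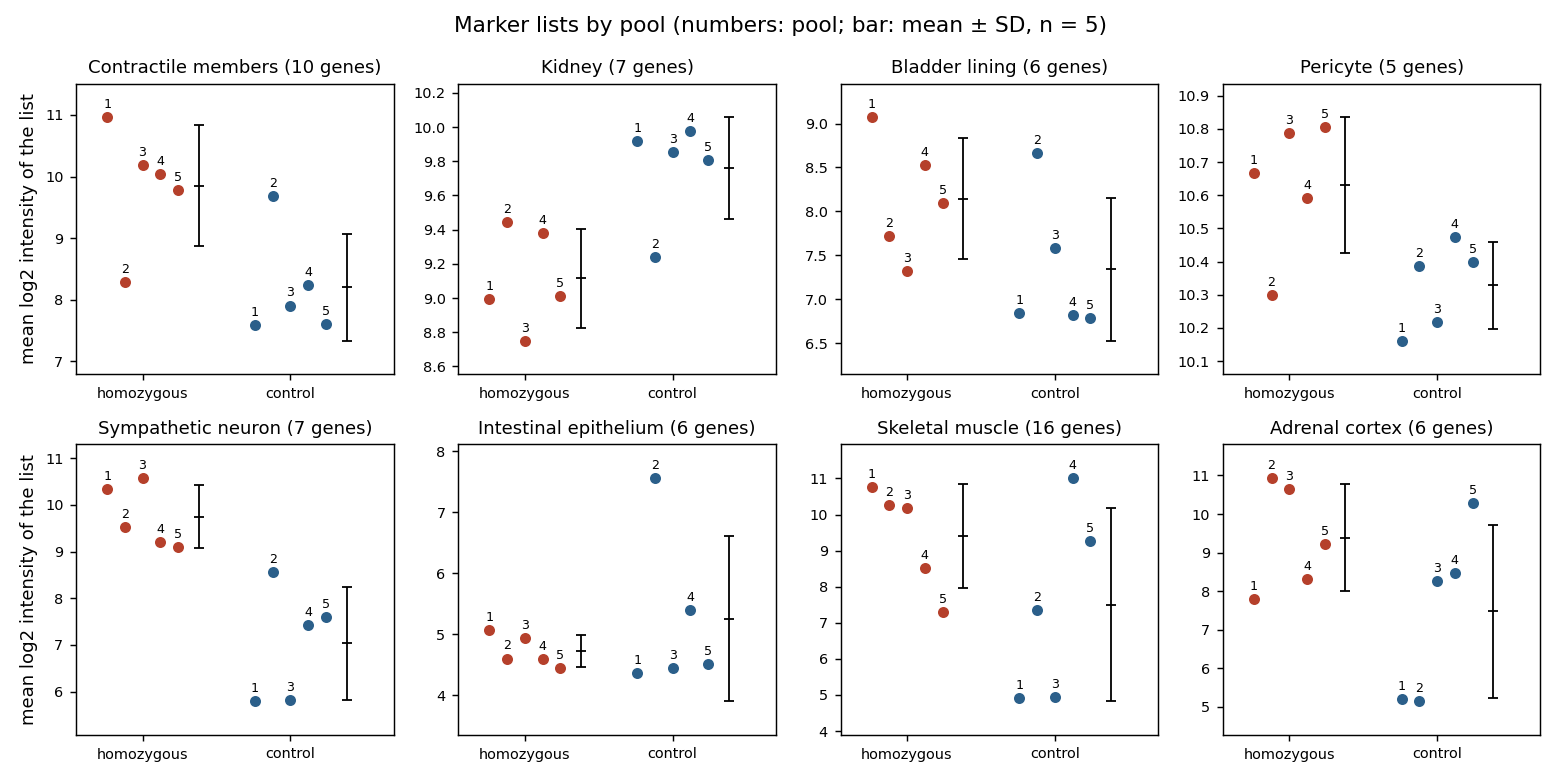
Mean log2 intensity (vertical axis) of the contractile members and of 7 marker lists, with 1 point per pool, homozygous pools at the left and control pools at the right; numbers name the pools, and bars give the mean and SD of 5 pools. Control pool 2 is the highest control pool for the members (9.69), the bladder lining (8.66) and the intestinal epithelium (7.56), and the lowest for the kidney markers (9.24).

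Skeletal muscle markers were higher in 16 of 16 genes, 0 of which passed, and their sums overlapped widely, with 5731 to 63460 in homozygous pools and 498 to 66734 in control pools. Each member probe set was set against the mean of this list over the 10 pools, which made 18 relations. The relation was chosen after the pool values had been seen, so its p-values are descriptions and not an independent test. The Synpo2 probe set 1452879_at followed the skeletal markers, with a Pearson r of 0.95 (permutation p = 6.0e-05, adjusted p = 0.0011) and a Spearman rho of 0.92 (permutation p = 4.8e-04, adjusted p = 0.0043). So did Des 1426731_at, with r = 0.88 (permutation p = 0.0011, adjusted p = 0.0095) and rho = 0.94 (permutation p = 2.1e-04, adjusted p = 0.0038). Without control pools 1 and 3, the pools farthest from the median of the list, r was 0.89 for the Synpo2 probe set and 0.88 for Des, and with each genotype's mean removed it was 0.95 and 0.86. The other 16 probe sets did not pass in either measure. Smtn had r = 0.66 and rho = 0.73 (permutation adjusted p = 0.154 and 0.0912). The dim Acta2 probe set 1456658_at had r = 0.69 and rho = 0.73, with the same permutation adjusted p-values. The brightest Synpo2 probe set had r = 0.13 (permutation adjusted p = 0.781). Both probe sets that passed are those in which control pool 4, with the highest skeletal list mean of the 10 arrays, ranked second.

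**Figure D5:**
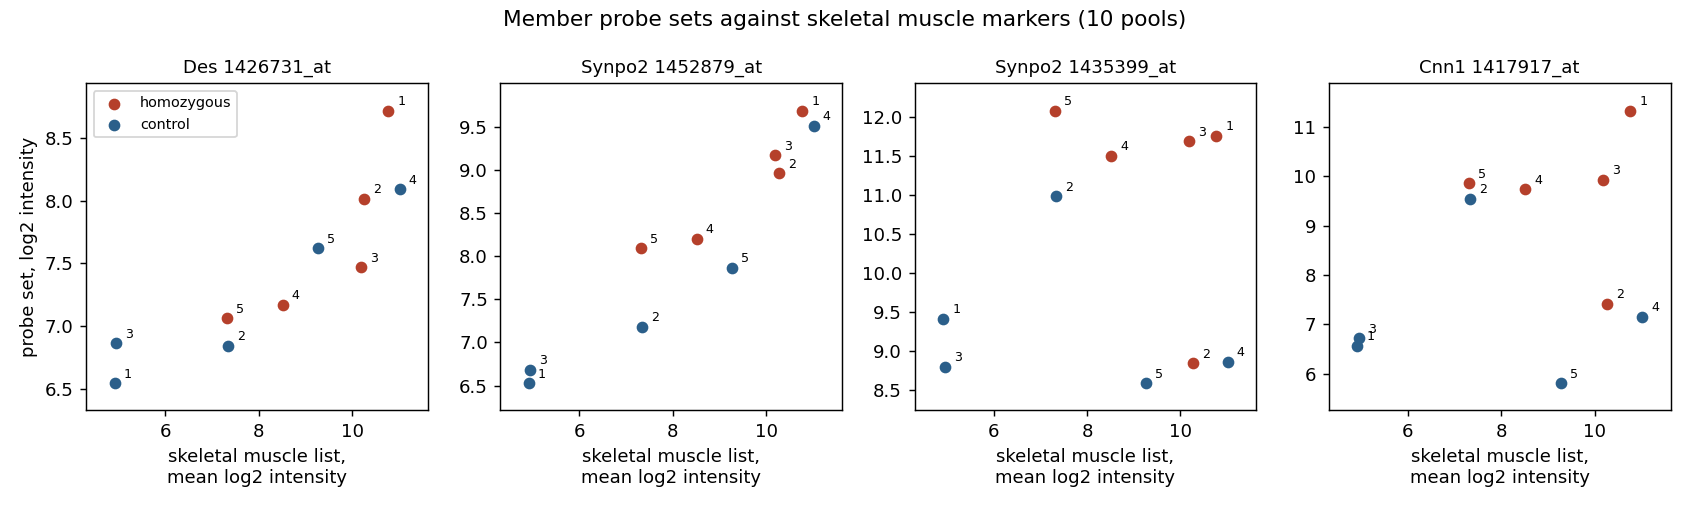
Log2 intensity of 4 probe sets (vertical axis) against the mean log2 intensity of 16 skeletal muscle markers (horizontal axis) in 10 pools, homozygous in red and control in blue, with pool numbers. Des 1426731_at (r = 0.88) and Synpo2 1452879_at (r = 0.95) follow the skeletal markers. For Synpo2 1435399_at (r = 0.13) and Cnn1 (r = 0.31) the relation did not pass. The relation was chosen after seeing the data.

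The genes whose pattern was most like the mean of the 10 members were ranked after each genotype's mean had been removed, among 9113 other genes with a mean log2 intensity of at least 8. The 8 with the highest Pearson r over 10 arrays were Atrn (0.97), Ppp1r12b (0.95), Bche (0.94), Msrb3 (0.92), Stom (0.92), Fnbp1 (0.90), Lurap1l (0.90) and Ak5 (0.89). Ppp1r12b encodes a subunit of myosin phosphatase and belongs to the list of calcium, cGMP and phosphatase genes. Their own log2 differences ran from 0.24 in Atrn to 1.22 in Bche, and none passed (lowest adjusted p = 0.0573, Ak5, limma). These r values are descriptions over arrays that share their pools and scaling.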

How the data were processed

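Each array is 1 RNA pool. The authors deposited 1 linear intensity per probe set and array, scaled to a common trimmed mean of 500 (highest and lowest 2% left out, computed from the values); how probes were summarized is not given in the sources used here. The titles of homozygous pools 1 to 4 end in CHP and those of the other pools do not, which the sources used here leave unexplained. Among 45101 probe sets, 64 controls were left out. The platform annotation gave 1 symbol to 34945 probe sets, several to 932 and none here to 9160. Intensities under 16 were set to 16 before log2, which can shrink, enlarge or turn the difference of a dim probe set, depending on the arrays it touches. Each gene took its probe set of highest mean; all member probe sets were also tested over 45037. The 2 genotypes were tested by limma 3.58.1 under R 4.3.3 (lmFit, eBayes with an intensity trend, two-sided), after a test on simulated data. Exact permutation tests used all 252 splits of the pools, with a smallest p of 0.00794. The labels do not say whether pools of a group share litters, so the spread behind each p-value is that between pools, which may be technical. The members and lists were chosen with earlier results of these data known, and the relation to skeletal markers after seeing the data. Named genes were the members, up to 4 of each list by smallest p, Srf, Mrtfa (listed as Mkl1) and Mrtfb (Mkl2), and the 8 most alike. Alternatives concerned the probe set per gene, filters, normalization, floor, variance model, array weights, replicate block and left-out arrays.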

Additional observations from a re-analysis of the deposited data

Results flagged for a closer look

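Single pools lay far from the other 4 of their group in 27 of 198 groups examined, by Dixon's criterion at its 95% value. Chance gives about 1 in 20 for independent, normally distributed values. The groups here share pools and genes, and in some of them the other 4 pools were at the floor. The count is therefore a description and cannot be set against that rate. The values are log2 intensities, with the range of the other 4 pools after each.

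Control pool 2 was high for Acta2 1444105_at (6.76, others 4.00 to 4.56) and Myh11 1418122_at (6.57, others 4.00 to 4.52). It was also high for the mean of the calcium, cGMP and phosphatase list (9.99, others 9.26 to 9.38) and of the ureter and bladder program (10.69, others 9.66 to 9.93), and for Foxf1 (11.03, others 6.44 to 7.65). Intestinal markers were far higher there, with Tff3 at 13.14 (others 4.00 to 4.70), Lgals4 at 12.19 (others 5.83 to 6.62) and Cdx1 at 7.03 (others 4.00), as was the basal keratin gene Krt5 at 10.49 (others 5.03 to 5.93). Kidney markers were lower in this pool, with a list mean of 9.24 (others 9.81 to 9.98) and Wt1 at 10.35 (others 11.23 to 11.54). Atrn was 9.84 (others 9.17 to 9.22), Ak5 was 8.64 (others 8.08 to 8.22) and Nppa was 4.55 (others 4.00 to 4.04).

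Homozygous pool 2 was low for Lmod1 (4.93, others 7.74 to 8.34), for Synpo2 1435399_at (8.85, others 11.50 to 12.08), for Pln, at the floor (4.00, others 8.25 to 9.58), and for Gata6 (10.58, others 11.23 to 11.41). Chrm3 was 4.36 in it and at the floor in the other 4. Homozygous pool 5, one of the arrays of high actin ratio, was low for the endothelial list (8.04, others 8.41 to 8.57), for Esam (8.41, others 9.11 to 9.16) and for Mrtfa (4.71, others 6.89 to 7.51). Control pool 1, the other such array, was low for Gata6 (8.99, others 9.77 to 10.08).

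Synpo2 1450828_at was 5.10 in control pool 5 and at the floor in the other 4. For Fabp2 the value was 4.44 in homozygous pool 4, against 4.93 in control pool 4, and the floor in the others. Tns1 was 10.93 in control pool 4 (others 10.62 to 10.70).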

How the results depend on the processing

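All 10 members kept a higher mean in homozygous pools under every alternative in which they were tested, except Smtn, whose difference was -0.0034 without homozygous replicate 1 and up to 0.60 with another pool left out; Smtn and Lmod1 had no value under the filters on dim genes. The count of members past the threshold was 0 over all pools, 1 (Myocd) with array weights, and 0 to 2 with each pool left out, the 2 being Lmod1 and Myocd without homozygous pool 2. Of all genes 0.967% passed over all pools, 5.23% with array weights and 1.37% without homozygous pool 2. The median difference of the members ran from 1.35 (without Xist-high pools) to 2.03 (array weights), and from 1.57 to 2.39 with each pool left out. Among other genes, Mrtfa was 0.22 without Xist-high pools and -0.82 to 0.10 with each pool left out, and Mrtfb was 0.15 with the mean of probe sets, 0.48 with the probe set of largest variance, 0.0039 with array weights and -0.12 to 0.0095 with each pool left out. No member probe set passed in any setting; Des 1426732_at was -0.25 with a floor of 4 and -0.015 with quantile normalization. The count over all genes was 176; it was 109 with the mean of probe sets, 93 with the probe set of largest variance, 283 with either filter on dim genes, 94 with a floor of 32, 951 with array weights, 23 without arrays of high actin ratio and 28 without Xist-high pools, and 3 to 414 with each pool left out; the cause was not tested where arrays were kept. With the replicate number as a block 1 gene passed and no member did (lowest member adjusted p = 0.428, limma). The deviations of same-numbered pools correlated between -0.55 and -0.17, so these pools did not shift together. What the numbers stand for was not tested. Signal near the floor limits Acta2 1444105_at and 1456658_at, Myocd 1425808_a_at, Myh11 1418122_at, Synpo2 1450828_at and Des 1426732_at.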
